A study of Mus musculus with 12 samples.

Results

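The SOCS family (suppressors of cytokine signaling) was followed across 4 groups of splenic follicular B cells, resting or stimulated through the B cell receptor, with and without the transcriptional repressor Bach2. Its 8 genes, Cish and Socs1 to Socs7, were taken as every noncontrol probe whose RefSeq accession maps to one of these symbols. That gave 11 of the 55681 noncontrol probes on the arrays, 3 for Socs2, 2 for Socs6 and 1 for each other gene. All 8 genes could be tested, among 22744 genes in all. Of these 22744, 13137 had a RefSeq symbol. The others went by the name the array gives their probes, and shares of all genes include them.

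SOCS proteins are feedback inhibitors. Cytokine receptors activate JAK kinases, which phosphorylate STAT transcription factors, and STATs in turn switch on SOCS genes. The SOCS protein then binds phosphorylated receptors or JAKs through its SH2 domain, while its SOCS box recruits elongins and a cullin ubiquitin ligase. Cish and Socs2 are classical targets of STAT5, Socs3 of STAT3, and Socs1 of STAT6 among others. In B cells these genes are known as brakes on the interleukin and interferon signals that go with antigen receptor stimulation.

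The cells were follicular zone B cells from the spleen of male C57BL/6J mice, either WT or Bach2-/-. They were analysed at 0 h or after 24 h in culture with 10 µg/mL of a Fab' antibody fragment against mouse IgM, which engages the B cell receptor. The sources used here do not give the ages of the mice, any pooling of animals or the nature of the Bach2 deletion. Each of the 4 groups (WT 0 h, WT 24 h, Bach2-/- 0 h, Bach2-/- 24 h) held 3 one-colour Agilent arrays. Whether the 3 came from separate animals or cultures is not in the labels, and p-values therefore reflect only how these samples spread, which may be technical.

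Levels are log2 processed signals relative to the 75th percentile of the same array, and differences are log2 differences of group means ± standard error, with 3 arrays per group. A level of one probe cannot be set against that of another. Tests are limma's moderated test on all 12 arrays, with p-values adjusted by Benjamini-Hochberg over the 22744 genes, and a gene passed at an adjusted p under 0.05. Between 50.9% and 66.7% of noncontrol spots were well above background, and the 75th percentile of the signal ran from 87.4 to 307. The number of arrays limits the precision. Array 1 of every group lay on slide 2 (4 arrays) and arrays 2 and 3 lay on slide 1 (8 arrays). Arrays with the same number deviated together, so a fit with the replicate number as a block (replicate block) is quoted for each SOCS gene whose call it changed, and for the surrounding genes where it changed a count or call given here. The reported Bach2 probe differed by -2.56 ± 0.30 in resting Bach2-/- cells (adjusted p = 0.0024) and by -3.75 ± 0.30 in stimulated ones (adjusted p = 5.53e-05), with its place relative to the deletion unknown here. On Bach2-/- 0 h array 1, labelled male, none of the Y-linked genes Ddx3y, Eif2s3y, Kdm5d and Uty was well above background, which goes against its label. Xist, the RNA of the inactive X chromosome of female cells, was well above background on array 1 of WT 0 h (-0.69), WT 24 h (-1.27), Bach2-/- 0 h (-0.82) and Bach2-/- 24 h (-2.10), which are the 4 arrays of slide 2, and on Bach2-/- 0 h array 3 (-2.07), but on none of the other 7. Apart from Bach2-/- 0 h array 1, these arrays also showed Y-linked genes, though Kdm5d was not well above background on array 1 of WT 0 h and WT 24 h. With that 1 exception on slide 1, Xist signal followed the slide and the replicate number, which goes against the label male, and how female RNA bears on the slide and block results was not tested. In a fit without these 5 arrays, chosen after seeing the data, Bach2-/- 0 h keeps 1 array, assumed to vary like the other groups, and 3 residual degrees of freedom remain. Of the 8 results of the SOCS family that passed, 6 passed there too, and Cish did not at 0 h (2.61, adjusted p = 0.237) or 24 h (1.32, adjusted p = 0.204). Bach2-/- 24 h array 2 was the dimmest. Without that array and Bach2-/- 0 h array 1 the same 8 results passed as with them.

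Markers of other cells moved with genotype. The summed level of 8 plasma cell markers was 6.84 to 7.45 on the WT 0 h arrays and 8.53 to 9.30 on the Bach2-/- 0 h arrays, and 6.74 to 7.58 against 7.70 to 8.48 at 24 h. That of 9 erythroid and platelet markers was 1.09 to 3.05 in WT and 4.28 to 5.88 in Bach2-/- cells at 0 h, and -1.45 to 0.67 against 2.10 to 4.26 at 24 h. Of these 9, 5 could be tested and 1 was well above background on all 12 arrays. In Bach2-/- cells 0 of them passed at 0 h and 3 were higher at 24 h. The sum of 7 NK cell markers was 2.0 to 2.52 against 2.56 to 3.12 at 0 h, and overlapped at 24 h. Of these 7, 6 could be tested, 2 were well above background on all 12 arrays, and 0 passed between genotypes at 0 h. The sums of neutrophil markers overlapped at both times. Of 10 tested neutrophil markers, 0 passed at 0 h and 1 was higher in Bach2-/- cells at 24 h. Of 8 marginal zone B cell markers, 4 were higher in Bach2-/- cells at 0 h, and 3 were higher and 3 lower at 24 h. All 9 measured B cell markers were well above background on all 12 arrays, and 6 of them fell over 24 h in WT and 8 in Bach2-/- cells. Their summed level was 10.2 to 10.6 in WT and 10.2 to 10.9 in Bach2-/- cells at 0 h. At 24 h it did not overlap, with 8.84 to 9.75 in WT and 7.92 to 8.71 in Bach2-/- cells. Of these B cell markers, 1 was lower and 0 higher in Bach2-/- cells at 24 h. All 11 T cell markers were above background throughout (7.09 to 7.30 in WT and 7.11 to 7.38 in Bach2-/- cells at 0 h, 6.65 to 7.38 and 6.49 to 6.78 at 24 h). The macrophage genes Fcgr1 and Mertk and the dendritic cell gene Xcr1 were not well above background on any array. Other markers of these cells were: 3 of 11 macrophage and monocyte markers and 4 of 7 dendritic cell markers were well above background on all 12 arrays. At 24 h, 1 macrophage and monocyte marker was higher in Bach2-/- cells, and 2 dendritic cell markers were higher and 1 lower. The part of these cells in the SOCS results was not tested. In such bulk samples, fewer cells of a type and less RNA per cell cannot be told apart.

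The promoters of the 3 members found to bear a motif, among those searched, are shown first. They carry the letters that STATs and interferon regulatory factors are known to read. The windows span 250 bases before to 50 bases after the annotated gene start (RefSeq, build GRCm38.p6). They were searched for 4 of the 8 genes, Cish, Socs1, Socs3 and Socs4, and promoters of the other members were not searched. Both strands were searched for the GAS element of STATs (TTCNNNGAA), the STAT6-type element (TTC and GAA with 4 bases of any kind between them), the AP-1 element that is also the core of the BACH-MAF element (TGAGTCA) and an interferon regulatory factor element (GAAA repeated with 2 bases of any kind between), the last chosen after the sequences were seen. The sequences run 5′ to 3′ on the strand of the gene, and capitals mark the matches.
Cish, chr9:107296409-107296708, plus strand: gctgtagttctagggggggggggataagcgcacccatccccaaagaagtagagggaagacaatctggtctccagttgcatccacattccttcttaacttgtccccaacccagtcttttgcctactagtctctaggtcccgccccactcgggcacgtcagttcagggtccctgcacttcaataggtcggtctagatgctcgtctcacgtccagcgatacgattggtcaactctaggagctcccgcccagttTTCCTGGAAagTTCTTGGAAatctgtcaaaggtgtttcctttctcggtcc
Socs1, chr16:10785487-10785786, minus strand: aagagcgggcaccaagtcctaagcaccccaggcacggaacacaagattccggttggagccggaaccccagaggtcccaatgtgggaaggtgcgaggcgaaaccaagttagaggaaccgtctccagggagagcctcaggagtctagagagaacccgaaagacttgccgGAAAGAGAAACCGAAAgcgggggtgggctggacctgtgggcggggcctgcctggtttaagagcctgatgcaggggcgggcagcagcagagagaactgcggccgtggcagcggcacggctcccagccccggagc
Socs3, chr11:117969317-117969616, minus strand: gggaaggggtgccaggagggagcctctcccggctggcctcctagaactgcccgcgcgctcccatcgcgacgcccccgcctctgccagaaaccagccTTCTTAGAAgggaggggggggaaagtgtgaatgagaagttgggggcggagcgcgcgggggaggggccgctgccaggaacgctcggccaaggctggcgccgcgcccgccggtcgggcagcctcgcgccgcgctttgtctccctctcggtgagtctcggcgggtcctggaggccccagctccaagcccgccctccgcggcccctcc
Cish held 2 GAS elements side by side, TTCCTGGAA at bases 1 to 9 and TTCTTGGAA at bases 12 to 20 counted from the annotated start. Socs3 held 1, TTCTTAGAA at bases -154 to -146. Socs1 held 2 interferon regulatory factor elements that overlap each other, GAAAGAGAAA at -83 to -74 and GAAACCGAAA at -77 to -68. Of all 32851 promoter windows of this length, 8.3% held a GAS element and 0.457% held 2 or more, 3.44% held the interferon regulatory factor element and 0.225% held 2 or more. The STAT6-type element (6.95% of all windows) and TGAGTCA (5.2%) had no match in the 4 windows, and Socs4 had no match to any of the 4 motifs. A match describes the letters and is not shown to be a site of binding here.

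**Figure D1:**
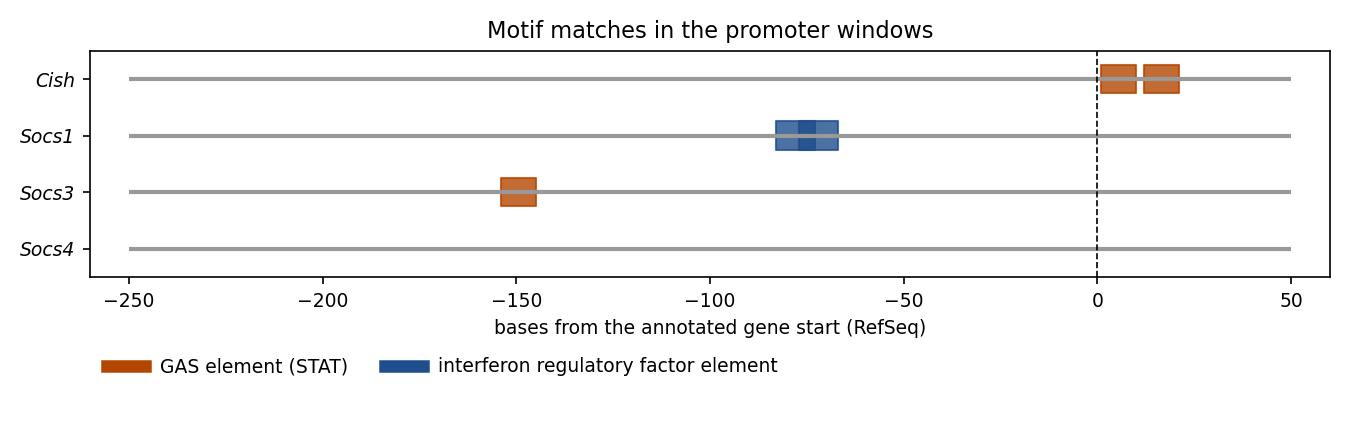
Positions of motif matches in the promoter windows of Cish, Socs1, Socs3 and Socs4, in bases from the annotated gene start, with GAS elements in orange and interferon regulatory factor elements in blue. The 2 Cish elements lie just downstream of the start, the Socs3 element at -154 and the overlapping pair of Socs1 from -83 on.

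Cish and Socs2 stood higher in Bach2-/- cells after stimulation, and Cish did so before it too. Cish rose steeply over 24 h in both genotypes, Socs2 rose in Bach2-/- cells, and Socs3 fell in both. Socs1 was higher on every Bach2-/- array than on any WT array of its time point, by 1.34 ± 0.39 at 0 h and 1.49 ± 0.39 at 24 h, and passed only with the replicate block (adjusted p = 0.272 and 0.0726 without it, 0.00181 and 0.000348 with it) or certain other settings. Socs4 to Socs7 passed in no comparison without that block or the slide as a block, except Socs5 in one fit to slide 1 alone.

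Counted over the family, 1 of 8 genes was higher in Bach2-/- cells at 0 h, against 0.536% of all genes tested, and none was lower (0.0923%). At 24 h, 2 of 8 were higher (2.15% of all genes) and 0 lower (0.831%). Over the 24 h of stimulation, 1 rose and 1 fell in WT cells (11.5% and 9.06% of all genes). Among the same genes in Bach2-/- cells, 2 rose and 1 fell (5.5% and 7.74% of all genes). The replicate block raised the calls among all genes as well. With it, 2 of 8 were higher at 0 h (2.78% of all genes) and 0 lower (0.919%), and 3 were higher (7.98%) and 2 lower (10.7%) at 24 h. Over 24 h, 2 rose (27.6%) and 2 fell (19.3%) in WT cells, and 3 rose (16.7%) and 3 fell (16.8%) in Bach2-/- cells. The median difference of the 8 genes was 0.21 at 0 h and -0.21 at 24 h, beside 0.032 and -0.053 over all genes. These comparisons share arrays: each group enters both a genotype comparison and a comparison over time.

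**Figure D2:**
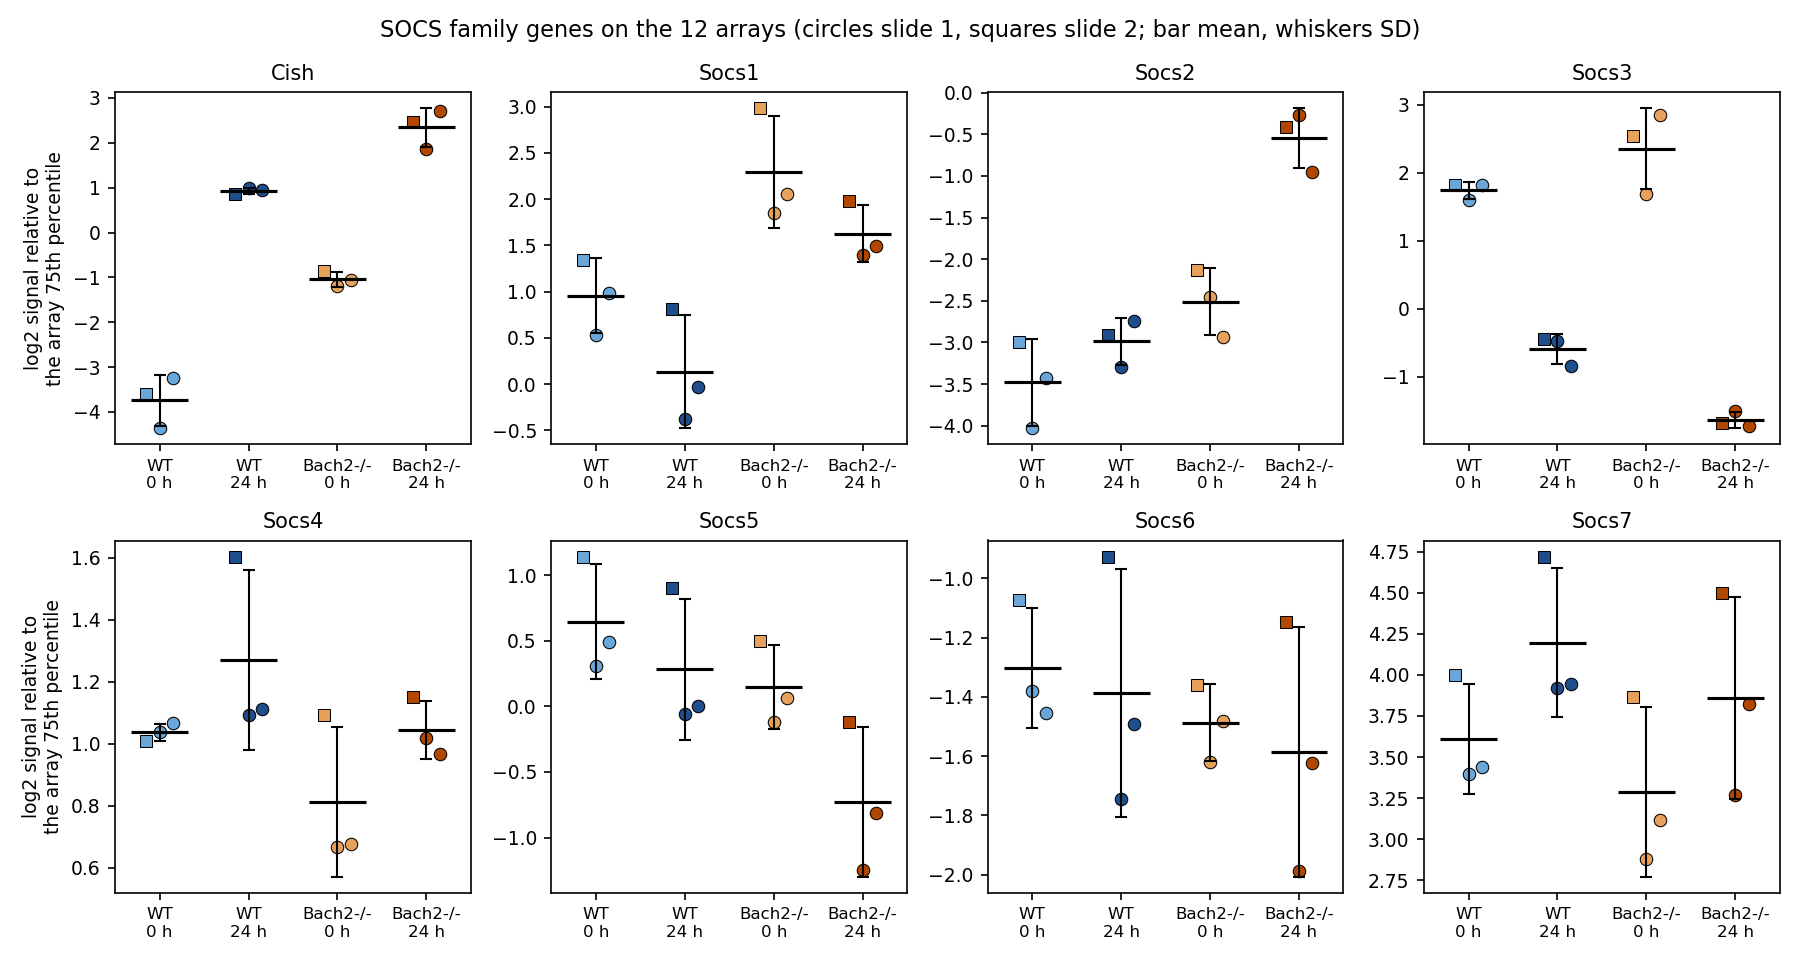
Log2 signal relative to the array's 75th percentile for the reported probe of each SOCS gene on the 12 arrays, by group, with circles for slide 1, squares for slide 2, bars for the mean and whiskers for the SD (3 arrays). Cish separates all 4 groups, Socs3 splits by time, and Socs1 splits by genotype, while Socs4, Socs5, Socs6 and Socs7 lie within narrower ranges; each panel has its own scale.

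Cish encodes CIS, which docks on phosphorylated receptors at the sites STAT5 uses. WT arrays read -3.60, -4.36 and -3.25 before stimulation and 0.85, 0.98 and 0.94 after it. Bach2-/- arrays read -0.87, -1.20 and -1.06 before and 2.47, 1.87 and 2.70 after. The 4 groups did not overlap, with WT 0 h lowest, then Bach2-/- 0 h, WT 24 h and Bach2-/- 24 h. Of all genes, 7.2% had the Bach2-/- arrays wholly above the WT arrays at 0 h and 7.77% at 24 h. The probe was well above background on 2 of 3 WT 0 h arrays and on all 9 others. At 0 h Cish was higher in Bach2-/- cells by 2.70 ± 0.31 (6.49-fold, adjusted p = 0.00191), and the difference was 2.68 on slide 1 and 2.74 on slide 2. With normexp background correction, which adds a constant (50) to every signal, that difference was 0.99 and did not pass (adjusted p = 0.182).

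At 24 h the Cish difference was 1.42 ± 0.31 (2.68-fold, adjusted p = 0.0321), with 1.32 on slide 1 and 1.62 on slide 2. This call was not stable. It was lost in 11 of 25 alternatives, with adjusted p from 0.00273 to 0.204 over all 25. It was lost when WT 24 h array 1 (0.102), 2 (0.0923) or 3 (0.114), Bach2-/- 24 h array 1 (0.0836) or 3 (0.134), or Bach2-/- 0 h array 2 (0.0531) or 3 (0.0592) was left out. It was also lost with no filter on dim probes (0.0598), with only the compared groups (0.118) and on slide 1 alone (0.122), while the difference stayed between 1.24 and 1.66. The rise of Cish over 24 h was 4.66 ± 0.31 in WT cells (25.3-fold, adjusted p = 5.01e-06) and 3.39 ± 0.31 in Bach2-/- cells (10.5-fold, adjusted p = 2.52e-05). Both passed in every one of 25 alternatives. The WT fold rests on a start at the edge of detection, and with normexp the WT rise was 2.44. The rises differed by -1.28 ± 0.44 (adjusted p = 0.481, 95% interval -2.24 to -0.31). With normexp the Bach2-/- rise was 2.73 and the difference between the rises was 0.29, of opposite sign, so its direction was not stable.

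Socs2 encodes an inhibitor best known for restraining growth hormone signaling, and is induced by STAT5. On the reported probe, resting WT cells gave -2.99, -4.03 and -3.42 and stimulated WT cells -2.92, -3.30 and -2.74. Resting Bach2-/- cells gave -2.14, -2.46 and -2.94 and stimulated ones -0.41, -0.27 and -0.95. The Bach2-/- 24 h arrays lay above all others, while Bach2-/- 0 h overlapped with WT 24 h, and WT 24 h with WT 0 h. At 24 h Socs2 was higher in Bach2-/- cells by 2.44 ± 0.33 (5.42-fold, adjusted p = 0.00167), with 2.41 on slide 1 and 2.50 on slide 2. At 0 h the difference was 0.97 ± 0.33 (adjusted p = 0.445). The groups did not overlap there, with the Bach2-/- arrays higher, as in 7.2% of all genes. Socs2 rose over 24 h in Bach2-/- cells by 1.96 ± 0.33 (adjusted p = 0.00181), and its WT change was 0.49 ± 0.33 (adjusted p = 0.353). The changes differed by 1.47 ± 0.47 (adjusted p = 0.406).

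The other Socs2 probes match the same RefSeq transcript, so they are repeat readings of 1 gene. In a fit over all 30735 probes kept, A_51_P107362 was higher in Bach2-/- cells at 24 h by 2.82 ± 0.32 (adjusted p = 0.000469) and A_55_P1992834 by 2.83 ± 0.29 (adjusted p = 0.000287). Both rose in Bach2-/- cells, by 3.47 ± 0.32 (adjusted p = 2.37e-05) and 3.45 ± 0.29 (adjusted p = 1.45e-05). All 3 probes thus placed Bach2-/- 24 h highest. They disagreed on the WT change, for which A_51_P107362 rose by 1.65 ± 0.32 (adjusted p = 0.00382) and A_55_P1992834 by 0.91 ± 0.29 (adjusted p = 0.0476), against 0.49 ± 0.33 (adjusted p = 0.349) for the reported probe. They disagreed also on the difference between the changes. It was 2.54 ± 0.41 by A_55_P1992834 (adjusted p = 0.0295), 1.82 ± 0.45 by A_51_P107362 (adjusted p = 0.198) and 1.47 ± 0.47 by the reported probe (adjusted p = 0.406). At 0 h the genotype difference was 1.0 ± 0.32 by A_51_P107362 (adjusted p = 0.362) and 0.29 ± 0.29 by A_55_P1992834, on which the groups overlapped. Neither passed. At WT 0 h the probes were dim, well above background on 1 array for A_51_P107362 and on 2 for each of the other probes. With the mean of the 3 probes, the WT rise of Socs2 was 1.02 and passed (adjusted p = 0.0197).

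**Figure D3:**
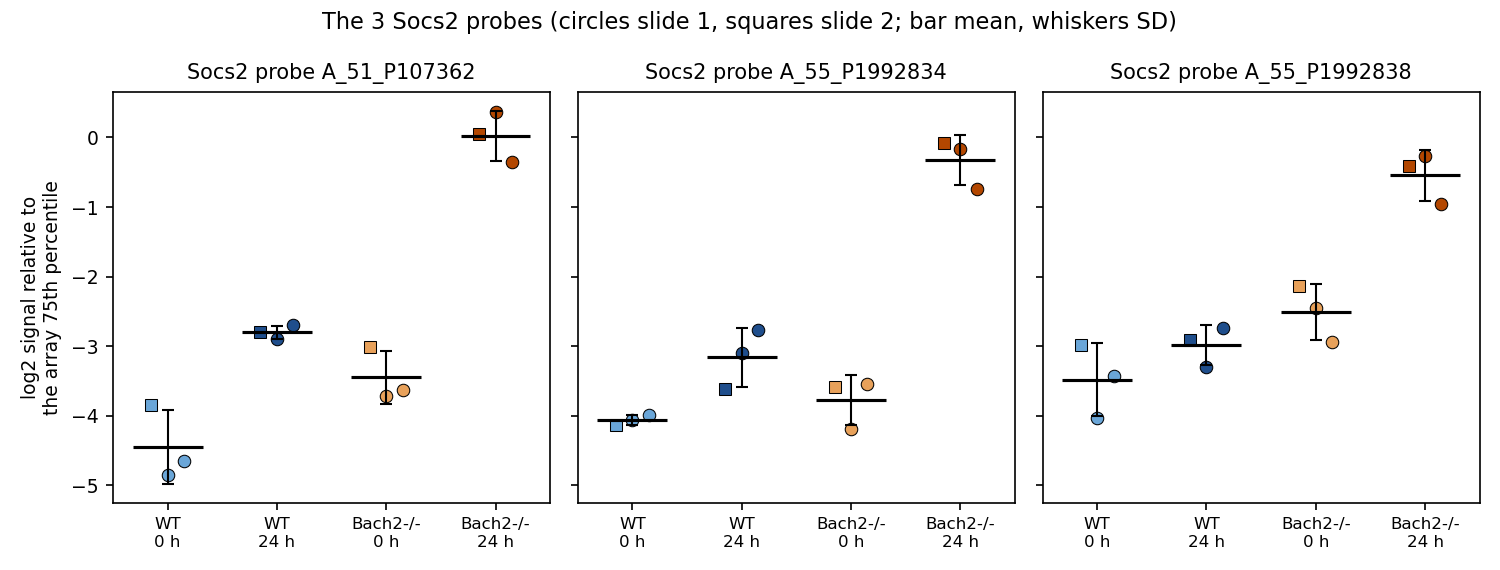
Log2 signal relative to the array's 75th percentile for the 3 Socs2 probes on the 12 arrays, by group, with circles for slide 1, squares for slide 2, bars for the mean and whiskers for the SD (3 arrays). On each probe the Bach2-/- 24 h arrays lie above all others, and the WT arrays at 0 h and 24 h overlap only on the reported probe, A_55_P1992838.

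Socs1 encodes a direct inhibitor of JAK kinases that restrains interferon-gamma and interleukin signals. The WT levels were 1.34, 0.53 and 0.99 before and 0.81, -0.38 and -0.034 after stimulation. The Bach2-/- levels were 2.99, 1.85 and 2.05 before and 1.98, 1.40 and 1.5 after. All 6 Bach2-/- arrays lay above all 6 WT arrays, while within each genotype 0 h and 24 h overlapped. Such separation at a single time point, with the Bach2-/- arrays higher, was found in 7.2% of all genes at 0 h and 7.77% at 24 h. The difference at 0 h was 1.19 on slide 1 and 1.64 on slide 2, and that at 24 h was 1.65 and 1.16. Array 1, on slide 2, gave the highest Socs1 level in each of the 4 groups. The 24 h difference also passed with quantile normalization (adjusted p = 0.0214), on slide 1 alone (0.00983) and when array 1 of WT 24 h (0.0401) or of Bach2-/- 0 h (0.0473), or all 5 arrays with Xist (0.026), were left out. The change over 24 h was -0.82 ± 0.39 in WT cells (adjusted p = 0.171, 0.0022 when blocked and 0.0416 without the arrays with Xist) and -0.67 ± 0.39 in Bach2-/- cells (adjusted p = 0.358, or 0.00966 when blocked).

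Socs3 encodes the inhibitor that acts on gp130, the shared receptor chain of the interleukin-6 family. WT cells went from 1.81, 1.60 and 1.82 before stimulation to -0.44, -0.48 and -0.84 after it. Bach2-/- cells went from 2.53, 1.69 and 2.84 to -1.68, -1.5 and -1.72. Each 0 h array lay above each 24 h array. The groups at 0 h overlapped, and at 24 h every Bach2-/- array lay below every WT array, as for 7.64% of all genes. Socs3 fell by 2.33 on the log2 scale in WT cells (SE 0.29, 5.02-fold lower, adjusted p = 0.00027) and by 3.99 in Bach2-/- cells (SE 0.29, 15.9-fold lower, adjusted p = 4.49e-06), and both calls held in 26 of 26 alternatives. The fall was larger in Bach2-/- cells by a difference of -1.66 ± 0.41, which did not pass (adjusted p = 0.196) except with a block on the replicate number (0.0362) or the slide (0.035). Between genotypes Socs3 differed by 0.61 ± 0.29 before stimulation (adjusted p = 0.864). After it the difference was -1.05 ± 0.29 (adjusted p = 0.0932, or 0.0211 with the block). The 24 h difference also passed with quantile normalization (0.0448) and without Bach2-/- 0 h array 2 (0.0427). It was -0.95 on slide 1 and -1.25 on slide 2.

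**Figure D4:**
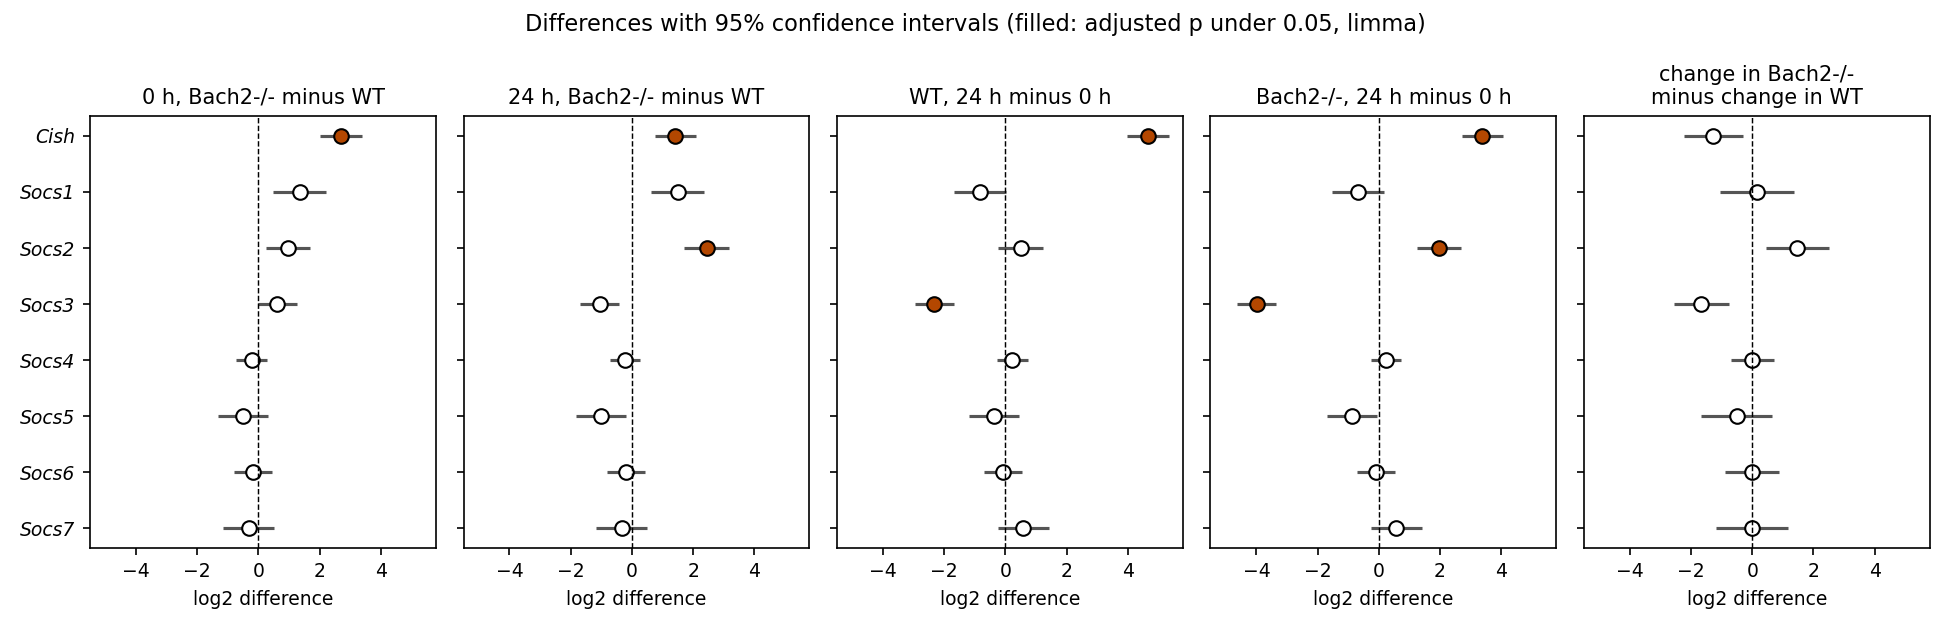
Log2 differences of the 8 SOCS genes with 95% confidence intervals for the 5 comparisons, with filled points where the adjusted p was under 0.05 (limma). Filled points are Cish at 0 h, at 24 h and in both changes over time, Socs2 at 24 h and in the Bach2-/- change, and Socs3 in both changes over time; the difference between the changes has none.

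Socs4 to Socs7 are the less studied members, examined mainly on receptor tyrosine kinase signaling. Socs4 ranged from 0.67 to 1.60 over the 12 arrays, and its 4 tested differences lay between -0.22 and 0.23, each ± 0.23. The 95% interval of its genotype difference ran from -0.72 to 0.27 at both times, so a change of 2-fold in either direction lay outside it. Socs6 ranged from -1.99 to -0.93 on its reported probe, with differences from -0.20 to -0.086 (± 0.29) and adjusted p from 0.844 to 1. The other Socs6 probe was well above background on 8 of 12 arrays and passed in no comparison.

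Socs5 stood at 1.14, 0.31 and 0.49 in resting and 0.90, -0.057 and 0.0025 in stimulated WT cells. Its Bach2-/- levels were 0.50, -0.12 and 0.063 at rest and -0.12, -1.25 and -0.82 after stimulation. At 24 h the Bach2-/- arrays were all below the WT arrays, as for 7.64% of all genes, by -1.01 ± 0.37 (adjusted p = 0.257, or 0.00177 if the replicate number was a block). The other comparisons of neighbouring groups overlapped. The change over 24 h was -0.87 ± 0.37 in Bach2-/- cells (adjusted p = 0.179, 0.00111 with the block, and 0.0167 on slide 1 alone) and -0.36 ± 0.37 in WT cells (adjusted p = 0.584). Array 1, on slide 2, was the highest of its group in all 4 groups for Socs5, as for Socs6 and Socs7.

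Socs7 read 4.0, 3.40 and 3.44 in resting and 4.72, 3.92 and 3.95 in stimulated WT cells. Resting Bach2-/- cells gave 3.87, 2.88 and 3.11, and stimulated ones 4.50, 3.27 and 3.82. Every neighbouring pair of groups overlapped. The change over 24 h was 0.59 ± 0.38 in WT cells (adjusted p = 0.341) and 0.58 ± 0.38 in Bach2-/- cells (adjusted p = 0.448). Both passed with the replicate block (adjusted p = 0.00983 and 0.0153).

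No SOCS gene passed for the difference between the 24 h changes of the genotypes (limma), where 0.317% of all genes did. At an unadjusted p under 0.05 there were 3 of 8, Cish, Socs2 and Socs3, against 7.16% of all genes. The Cish difference changed sign with normexp. With the replicate block 1 of 8, Socs3, passed at an adjusted p under 0.05, as did 4.28% of all genes. The interval for Socs1 ran from -1.05 to 1.35 and that for Socs7 from -1.20 to 1.18, so changes of 2-fold between genotypes were not resolved for these genes.

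Over the 12 arrays, the members fell into differing patterns, given as descriptions because the arrays share groups and slides. Cish and Socs2 correlated at r = 0.75, Cish and Socs3 at -0.82, Socs5 and Socs6 at 0.82, and Socs4 and Socs7 at 0.85. Cish and Socs1 correlated at 0.01. Profiles were compared among 11254 genes with a RefSeq symbol and well above background on all 12 arrays. The profile most like that of Socs1 was Mzb1 (r = 0.97), which is one of the marginal zone markers counted above. For Socs3 the most alike were Soat1 (0.984), Klf2 (0.982), a quiescence and homing factor, and Pglyrp1 (0.981). For Socs4 they were Cd72 (0.938), Itpkc (0.93) and Arl16 (0.921), and for Socs5 Suox and Zfp607a (both 0.988) and Ccdc125 (0.984). For Socs6 they were 1700028J19Rik (0.969), Lrrc1 (0.947) and Birc2 (0.945), and for Socs7 Xrcc2 (0.985), Taf2 (0.984) and Prpf3 (0.982). After Mzb1, Socs1 was most like Rp2 (0.958) and Etv5 (0.957). Cish and Socs2 were not well above background on every array and were not ranked.

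The rest of the pathway was read from lists of its parts, with 139 genes listed outside the SOCS family and all but 32 of them tested. Of those tested, 4 were higher and 0 lower in Bach2-/- cells at 0 h, and 8 were higher and 6 lower at 24 h. Over 24 h, 16 rose and 16 fell in WT cells, and 11 rose and 20 fell in Bach2-/- cells. With the replicate block 9 were higher and 2 lower at 0 h and 12 higher and 15 lower at 24 h, while 35 rose and 27 fell in WT and 24 rose and 34 fell in Bach2-/- cells. Calls among all genes grew with it too. The counts here and for each list below stand beside the shares of all genes given above, without and with the block. The median differences of the tested genes were 0.097 at 0 h and -0.11 at 24 h, beside 0.032 and -0.053 over all genes.

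None of the 4 JAK genes, which encode the kinases upstream of SOCS, passed, the nearest being Jak2 in the WT change (0.93 ± 0.30, adjusted p = 0.0508) and Jak1 in the Bach2-/- change (-1.12 ± 0.38, adjusted p = 0.0779). With the replicate block no JAK gene differed between genotypes. Jak2 rose in WT (adjusted p = 0.0002) and Bach2-/- cells (0.77, adjusted p = 0.001), Jak1 fell in WT (-0.69, adjusted p = 0.0051) and Bach2-/- cells (adjusted p = 0.0004), and Jak3 fell in Bach2-/- cells (-0.50, adjusted p = 0.0282). Of 7 STAT genes, Stat5a, whose product drives Cish and Socs2, rose by 2.63 ± 0.21 in WT cells (adjusted p = 1.55e-05) and by 1.57 ± 0.21 in Bach2-/- cells (adjusted p = 0.000388). At 24 h it was lower in Bach2-/- cells, by -1.05 ± 0.21 (adjusted p = 0.0206), where Cish and Socs2 were higher. That call was lost in 9 of 26 alternatives, among them without Bach2-/- 0 h array 1 and Bach2-/- 24 h array 2 (0.0606) and without the arrays with Xist (0.127). Stat5b differed by -0.77 ± 0.23 at 24 h (adjusted p = 0.138, and 0.0072 with the block), and changed by -0.52 in Bach2-/- cells (adjusted p = 0.21, and 0.0195 with the block). Stat4 was lower at 24 h (-1.14 ± 0.27, adjusted p = 0.0471), a call lost in 18 of 26 alternatives. Stat3, the activator of Socs3, changed by 0.25 ± 0.30 in WT (adjusted p = 0.647) and 0.14 ± 0.30 in Bach2-/- cells (adjusted p = 0.895).

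Among receptor subunits, Il2rb, the signaling chain of the interleukin-2 and interleukin-15 receptors, lay between -2.54 and -1.06 on the arrays of WT 0 h, WT 24 h and Bach2-/- 0 h, and at 2.29, 2.03 and 2.18 on those of Bach2-/- 24 h. It was higher at 24 h by 4.62 ± 0.29 (adjusted p = 8.5e-06), the comparison in which Cish and Socs2 were higher. Il2ra, the high-affinity chain, rose in both genotypes, by 5.12 ± 0.37 and 5.35 ± 0.37 (adjusted p = 7.45e-06 and 3.05e-06). Il5ra (-2.68 ± 0.30, adjusted p = 0.000452) and Il6ra (-1.21 ± 0.22, adjusted p = 0.0127, lost in 4 of 26 alternatives) were lower in Bach2-/- cells at 24 h. Il6ra is the receptor whose gp130 signal Socs3 restrains. Of 31 tested subunits, 1 was higher and 0 lower at 0 h, and 1 higher and 2 lower at 24 h. Over 24 h, 4 rose and 5 fell in WT cells and 4 rose and 7 fell in Bach2-/- cells. In the blocked fit 4 were higher and 1 lower at 0 h, 3 higher and 4 lower at 24 h, 6 rose and 10 fell in WT cells, and 8 rose and 12 fell in Bach2-/- cells. Of the subunits named in this paragraph, Il10ra was then lower in Bach2-/- cells at 24 h (-0.79, adjusted p = 0.0115, against 0.362 unblocked). Il4ra was lower at 0 h (-0.61, adjusted p = 0.036, against 1 unblocked). The other calls gained with the block were of subunits not named here and went in both directions. Among those that fell in both were Il4ra, by -3.11 ± 0.33 in WT cells (adjusted p = 9.26e-05), and Il10ra, by -2.51 ± 0.34 in WT cells (adjusted p = 0.000478) and -3.15 ± 0.34 in Bach2-/- cells (adjusted p = 8.46e-05). Lifr, the receptor of leukaemia inhibitory factor, was higher at 0 h in Bach2-/- cells (1.97 ± 0.32, adjusted p = 0.0163, lost in 9 of 25 alternatives). It was not well above background on any 24 h array, at least 13.2-fold lower than at 0 h in WT (adjusted p = 2.32e-06) and at least 47.6-fold lower in Bach2-/- cells (adjusted p = 2.19e-07). Such a bound sets the mean of the bright group against the lowest signal still well above background.

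Only 8 of 25 listed cytokine genes could be tested, and 3 of them were higher in Bach2-/- cells at 24 h. Ifng, the interferon-gamma gene, stood at 1.40, 1.25 and 0.84 in WT and at 5.78, 5.39 and 5.33 in Bach2-/- cells at 24 h, higher by 4.34 ± 0.35 (adjusted p = 4.91e-05). Il6 was higher by 2.33 ± 0.41 (adjusted p = 0.00933, lost with normexp at 0.0839). Il10, which no WT array at 24 h showed well above background, was at least 3.52-fold higher (adjusted p = 0.00838, lost with normexp at 0.64). At 24 h, 2 of 11 T cell markers and 1 of 6 NK cell markers were higher in Bach2-/- cells, and their part in the Ifng difference was not tested.

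**Figure D5:**
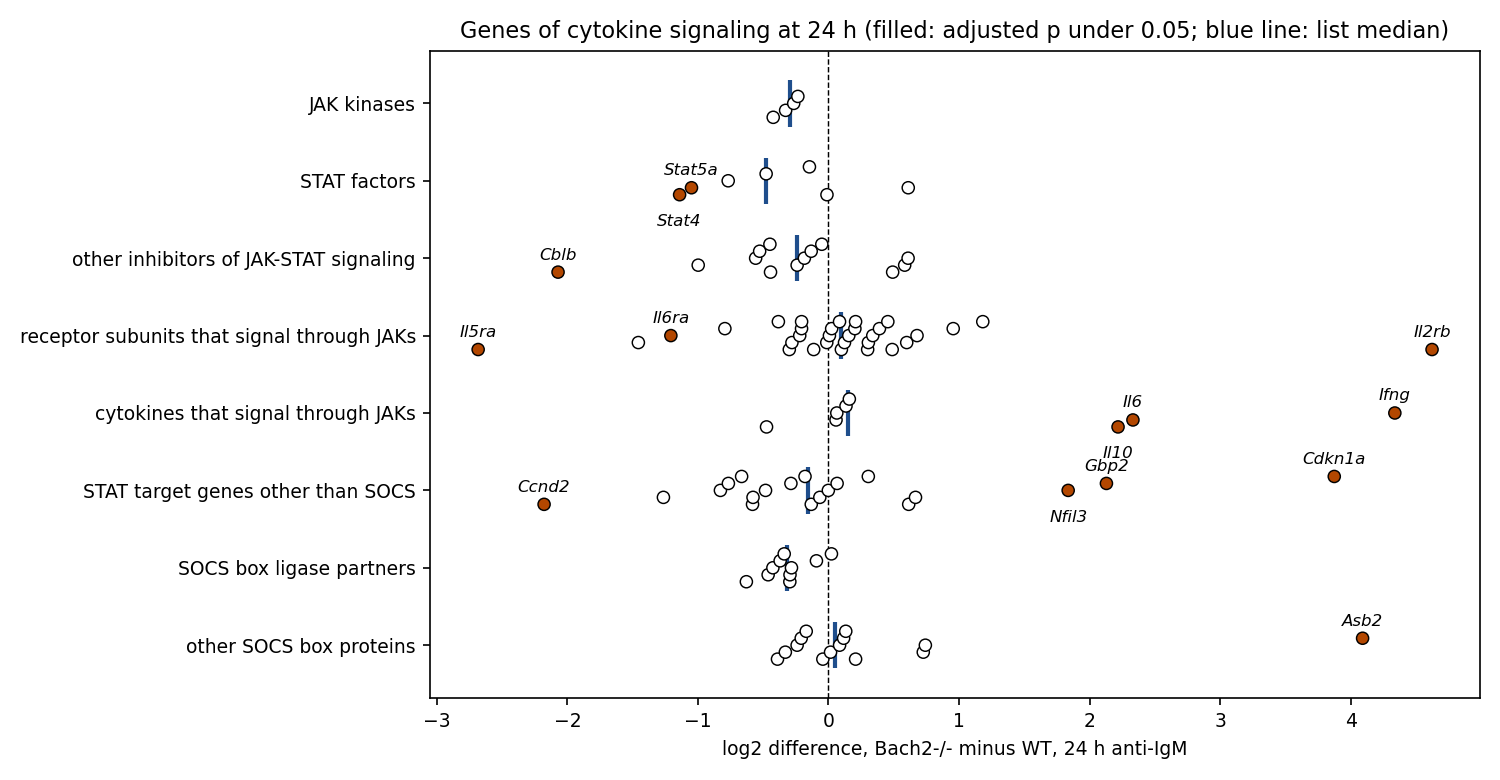
Log2 differences between Bach2-/- and WT cells at 24 h for the tested genes around the SOCS family, by list, with filled points where the adjusted p was under 0.05 and blue lines at list medians. Il2rb, Ifng, Asb2 and Cdkn1a lie farthest to the right, Il5ra, Ccnd2 and Cblb farthest to the left, and the JAK genes between -0.42 and -0.23.

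Other genes listed as STAT targets, whether induced or repressed, moved in both directions. Of 20, 2 were higher in Bach2-/- cells at 0 h, the kinase gene Pim1 (2.30 ± 0.38, adjusted p = 0.0172, lost in 7 of 26 alternatives) and the transcription factor gene Nfil3 (2.42 ± 0.33, adjusted p = 0.0062, lost in 2 of 26 alternatives, with normexp and, at 0.196, without the arrays with Xist). At 24 h, 3 were higher, Cdkn1a (3.87 ± 0.34, adjusted p = 8.2e-05), Gbp2 (2.13 ± 0.42, adjusted p = 0.0186, lost in 6 of 26) and Nfil3 (1.84 ± 0.33, adjusted p = 0.0108, lost in 3 of 26), and Ccnd2 was lower (-2.18 ± 0.51, adjusted p = 0.0439, lost in 15 of 26 alternatives). Over 24 h, 6 rose and 6 fell in WT cells and 3 rose and 8 fell in Bach2-/- cells. Blocked by replicate number, 4 were higher at 0 h, 4 higher and 4 lower at 24 h, 10 rose and 7 fell in WT cells, and 6 rose and 8 fell in Bach2-/- cells. Nfil3 (adjusted p = 0.0143) and Ccnd2 (0.0422) then rose in Bach2-/- cells, Cdkn1a rose in WT cells (0.0292), and at 24 h Bcl6 was lower in Bach2-/- cells (0.0395) and at 0 h Gbp2 higher (0.0399). Bcl2l1, the survival gene of Bcl-xL, rose by 4.43 ± 0.29 and 3.76 ± 0.29 (adjusted p = 3.93e-06 and 6.18e-06). Bcl6 fell by 3.09 on the log2 scale (adjusted p = 5.99e-05) in WT and by 3.56 (adjusted p = 1.7e-05) in Bach2-/- cells.

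Of the partners that make a SOCS protein part of a ubiquitin ligase, none of 10 differed between genotypes, and 3 rose in WT cells, Cul5 (1.10 ± 0.30, adjusted p = 0.0232), Cul2 (1.04 ± 0.29, adjusted p = 0.0242) and Ube2m (1.16 ± 0.38, adjusted p = 0.0497). These calls were lost in 3, 5 and 11 of 26 alternatives. With the replicate block Rnf7 was lower in Bach2-/- cells at 24 h (-0.63, adjusted p = 0.0475). In that fit 9 of 10 rose in WT cells (27.6% of all genes), with Elob, Eloc, Rnf7, Rbx1, Arih2 and Nedd8 added (adjusted p from 0.0016 to 0.0067). In Bach2-/- cells 4 rose (16.7% of all genes), Cul5, Cul2, Ube2m and Eloc. Of 14 other tested genes for SOCS box proteins, Asb2, a notch-induced ligase subunit, was higher in Bach2-/- cells by 4.60 ± 0.46 before stimulation (adjusted p = 0.000694, lost without the arrays with Xist at 0.0643) and 4.09 ± 0.46 after it (adjusted p = 0.000469). Asb2 is also one of the marginal zone markers. Among inhibitors of JAK-STAT signaling other than SOCS, 1 of 13 differed at 24 h, Cblb, a ubiquitin ligase gene, lower by -2.07 ± 0.21 (adjusted p = 0.00026). When blocked, 1 was higher at 24 h, Dusp2 (0.58, adjusted p = 0.046), and 3 were lower, Cblb, Sh2b3 (-0.998, adjusted p = 0.0104) and Ptpn1 (-0.56, adjusted p = 0.0253), while Cblb was lower at 0 h too (-0.91, adjusted p = 0.0045). Over 24 h Usp18, a brake on interferon receptors, fell in WT (-2.31 ± 0.33, adjusted p = 0.000704) and in Bach2-/- cells (-1.43 ± 0.33, adjusted p = 0.0139, lost in 4 of 26 alternatives), and Cblb fell in both.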

How the data were processed

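Total RNA was labelled with Cy3 and hybridised to 12 Agilent one-colour arrays, each with 1 sample. The authors used Agilent Feature Extraction 10.7.3.1 per the file headers, and its processed signal is a background-subtracted, detrended intensity. The array annotation is on mm9. The raw spot signal and local background, intensities per the file headers, served the normexp alternative (offset 50). Flags for control, outlier, saturated and well above background spots were taken as the deposited files give them. The deposited series table holds log2 values of unstated scale, which correlated with the scanner-based values at r = 0.99975 to 0.99995, and served as an alternative.

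Spots of a probe without outlier flags were averaged, divided by the array's 75th percentile, floored at 0.01 and log2 transformed. The filter kept 30735 probes with every array of some group (3 arrays) well above background, and a gene was read from its kept probe with the highest mean (22744 genes, 13137 with a RefSeq symbol). Group means were fitted with limma 3.58.1 in R 4.3.3, and variances moderated by empirical Bayes (11.4 degrees of freedom). The smallest exact permutation p for 3 against 3 arrays is 0.1. Tests ran on simulated data for the 24 h genotype comparison (22744 genes) recovered 14%, 66%, 88% and 84% of log2 changes of 1, 2, 3 and 4, with 4.55% false calls. The simulated noise was independent between arrays, whereas the real arrays deviated together, so these rates may not hold for the real data.

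Replicate numbers come from the labels. Same-numbered arrays deviated together from their group means (18 pairs, r = 0.47 to 0.89, and 0.47 to 0.75 for those on slide 1), against 0.25 to 0.65 for different numbers on slide 1. Alternatives were other normalizations, filters, probes, blocks, subsets of arrays, each array left out and, chosen after seeing the data, the arrays with Xist left out. All SOCS genes were named, and of each pathway list and comparison up to 4 genes past the test with the largest difference or, where none passed, the gene with the largest, with JAK and STAT genes, except that some items are not reported here. The members and lists were chosen with earlier results of these data known.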

Additional observations from a re-analysis of the deposited data

Results flagged for a closer look

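A difference between the 24 h changes of the genotypes that passed its own test (limma) singled out 4 results. The Socs2 probe A_55_P1992834 changed by 2.54 ± 0.41 more in Bach2-/- than in WT cells (adjusted p = 0.0295 over all probes), while the other Socs2 probes gave 1.82 and 1.47 and did not pass. Among the surrounding genes, Il2rb changed by 4.33 ± 0.41 more in Bach2-/- cells (adjusted p = 0.000692). Ifng changed by 3.88 ± 0.49 more (adjusted p = 0.00547), having risen in both genotypes. Cdkn1a, which encodes the cell cycle inhibitor p21, changed by 4.56 ± 0.48 more (adjusted p = 0.00136). Il2rb passed in all 25 alternatives run for it. Ifng and Cdkn1a passed in all but the fit without the 5 arrays with Xist (adjusted p = 0.0646 and 0.0549).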

How the results depend on the processing

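Of the 40 results of the SOCS family, 8 passed and 6 of these did so under every alternative run (24 to 26 each). The exceptions were Cish at 0 h and at 24 h. None of the passing results reversed, and sign changes occurred only among differences that passed neither way. Counts of SOCS genes past the test moved by over 1.5 times at 24 h (from 2) with quantile normalization (4), no filter (1) and only the compared groups (1), and at 0 h (from 1) with normexp (0). The fit without the 5 arrays with Xist, chosen after seeing the data, leaves 1 array in Bach2-/- 0 h, so its counts are not set beside these. In it Cish still differed by 2.61 at 0 h. With probes above background on all 12 arrays, which drops Cish and Socs2, SOCS genes past the test were 0, 0, 1 and 1 of 6 for 0 h, 24 h, WT change and Bach2-/- change. Shares of all genes are given only without a block and with the replicate block. Counts under the other settings are therefore not results about these genes in particular. The replicate block gave 2, 5, 4, 6 and, for the difference between changes, 1, and the slide as a block the same counts. It ended no call. Pathway counts moved with the replicate block (11, 27, 62, 58 and 13) or the slide block (9, 24, 60, 57 and 12) from 4, 14, 32, 31 and 3. They also moved with all 12 arrays above background (2 at 0 h, 9 at 24 h), only the compared groups (8 at 24 h), quantile normalization (5 for the difference) and slide 1 alone (6 for it). With each array left out in turn, SOCS genes past the test at 24 h numbered 1 to 3, and pathway genes 2 to 4 at 0 h and 8 to 14 at 24 h. Leaving out the dim-probe filter shifted the median of all genes by up to 0.263, and other scalings by under 0.1. The cause was not tested, and signal over background limits Cish and Socs2 in WT 0 h cells.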
